A study of Mus musculus with 12 samples.

Results

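A group of 38 genes of DNA break repair and its checkpoint was followed across normal and lymphoma-model mouse B cells. The genes were taken by symbol from count tables of 50686 genes, each symbol matched exactly 1 row, and all 38 were among the 17754 genes with enough counts to be tested. By role, 14 genes act in homologous recombination, 5 in break sensing and the choice between repair routes, 10 in end joining or single-strand break repair, 3 in the Fanconi pathway, 2 in mismatch repair and 4 in checkpoint signalling.

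A double-strand break can be rejoined directly by end joining, or copied from the sister chromatid by homologous recombination, which is used mainly in S and G2 phase. The Fanconi pathway opens crosslinks between DNA strands and passes them to recombination, and mismatch repair removes replication errors. The kinases Atm and Atr report breaks and stalled forks to Chek2 and Chek1, which halt the cell cycle. B cells depend on these routes because they cut their own immunoglobulin genes, and end joining completes V(D)J recombination and class switching.

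Poly(A) RNA was sequenced from splenic B cells sorted as positive for B220, a B cell form of CD45, and for a fluorescent reporter, from 12 mice. Every mouse carried 1 Cg1Cre allele, a Cre recombinase expressed from the IgG1 constant region locus and so active in B cells that transcribe it. YC mice (n = 3) were the normal controls and had the genotype YFPstopF/+ Cg1Cre/+, so that the Cre switched on a yellow reporter. BIC mice (n = 3) had the genotype Blimp1F/F IKK2castopF/stopF Cg1Cre/+, that is, floxed Blimp1 together with an always active form of the NF-kB kinase IKK2 that Cre releases from its stop cassette, and a green reporter. pBIC mice (n = 6) carried p53F/F in addition to all BIC alleles. Both BIC and pBIC carry the label of lymphoma models of ABC-DLBCL, an aggressive lymphoma of activated B cells. The labels used here give no age, sex, promoter of the IKK2 transgene or share of tumour cells in the sort.

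Total gene counts ran from 33127283 to 47067627 per library. Levels are given as CPM, counts scaled to a common library total after TMM adjustment. Trp53, the gene of p53, lay at 137 to 147 CPM in YC, 72.1 to 209 CPM in BIC and 16.2 to 32.0 CPM in pBIC, lowest in the group labelled with floxed p53. Ikbkb, the gene of IKK2, lay at 217 to 250 CPM in YC, 381 to 538 CPM in BIC and 453 to 510 CPM in pBIC. Prdm1, the gene of Blimp1, lay at 18.1 to 19.98 CPM in YC, 5.33 to 41.1 CPM in BIC and 0.718 to 21.3 CPM in pBIC, and passed in no comparison. Floxed exons were not counted apart from the rest. The summed level of 10 B cell markers was 9944 to 11450 CPM in YC, 9467 to 10060 CPM in BIC and 2856 to 7675 CPM in pBIC, and none of the 10 was at 0 counts in any library. The summed level of 10 germinal centre markers was 886 to 1903 CPM in YC, 23.2 to 67.5 CPM in BIC and 23.3 to 63.0 CPM in pBIC. Neutrophil markers (10 genes) summed to 867 CPM in BIC 1, 1428 CPM in BIC 2, 266 CPM in YC 1 and at most 76.0 CPM in each of the other libraries. T cell markers (10 genes) summed to 206 to 246 CPM in YC, 322 to 440 CPM in BIC and 80.6 to 214 CPM in pBIC. Macrophage and monocyte markers (10 genes) summed to 51.3 to 98.7 CPM in YC, 181 to 290 CPM in BIC and 17.0 to 378 CPM in pBIC. Xist was at most 5.13 CPM in YC, 1680 to 1828 CPM in BIC and mixed in pBIC, so it separated BIC from YC as fully as genotype did.

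The promoters of the repair genes were read for letters of the E2F site, which is common among genes of S phase. RefSeq windows on GRCm38.p6, from 250 bases before to 50 bases after the start, were found for 29 of the 38 genes. A pair of windows was listed for Rad51b, Rad51c, Rad54l and Lig4, and for the shares the first listed window of each gene was counted. An E2F word (TTTCCCGC, TTTCGCGC, TTTGCCGC or TTTGGCGC, on either strand) stood in 6 of these 29 windows (20.7%) and in 2.32% of all 27025 windows. The word TTTGAA, the core of the CHR element of mitotic genes, stood in 2 of the 29 windows (6.9%) and in 18.1% of all, and also in the other window of Rad51b. CCAAT stood in 15 (51.7%) and 37.9%. The 6 genes with an E2F word were Brca2, Bard1, Rad51c, Xrcc6, Msh3 and Chek2. The windows of the 4 among them that passed the expression test against YC are printed, from 250 bases before to 10 bases after the start, 5′ to 3′ on the strand of the gene, with the E2F words in capitals. For Rad51c this is the second listed window, whose start lies nearest to the outer end of the gene in the count tables. They lie at chr11:87404945-87405204 (Rad51c, minus strand), chr13:92354994-92355253 (Msh3, minus strand), chr5:110839733-110839992 (Chek2, plus strand) and chr15:82016119-82016378 (Xrcc6, plus strand).

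Rad51c: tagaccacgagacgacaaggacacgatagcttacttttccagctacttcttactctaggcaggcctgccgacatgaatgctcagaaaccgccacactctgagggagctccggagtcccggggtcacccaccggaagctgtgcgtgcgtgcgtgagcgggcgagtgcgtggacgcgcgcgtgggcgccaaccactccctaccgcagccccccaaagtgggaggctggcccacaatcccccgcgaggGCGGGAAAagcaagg
Msh3: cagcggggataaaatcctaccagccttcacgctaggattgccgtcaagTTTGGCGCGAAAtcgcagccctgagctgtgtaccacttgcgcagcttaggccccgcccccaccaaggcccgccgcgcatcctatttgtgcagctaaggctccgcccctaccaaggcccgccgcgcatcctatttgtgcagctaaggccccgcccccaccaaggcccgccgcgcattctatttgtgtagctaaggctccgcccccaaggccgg
Chek2: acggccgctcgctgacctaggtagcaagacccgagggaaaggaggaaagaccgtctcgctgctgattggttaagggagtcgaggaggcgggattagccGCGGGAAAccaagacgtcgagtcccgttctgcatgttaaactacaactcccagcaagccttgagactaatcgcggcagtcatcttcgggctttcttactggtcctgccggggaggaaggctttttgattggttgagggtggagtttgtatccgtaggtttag
Xrcc6: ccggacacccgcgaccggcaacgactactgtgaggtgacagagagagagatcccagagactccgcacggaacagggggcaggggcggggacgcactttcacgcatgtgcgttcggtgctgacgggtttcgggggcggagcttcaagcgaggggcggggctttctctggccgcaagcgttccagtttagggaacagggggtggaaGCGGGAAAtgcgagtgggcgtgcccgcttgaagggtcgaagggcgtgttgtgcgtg

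In Msh3 a pair of E2F words overlap on opposite strands. In Rad51c the word begins 5 bases before the start and runs across it, while in Chek2 it begins 152 bases before. These 4 genes moved in different ways. Rad51c was lower in both lymphoma models, Msh3 was lower in BIC, and Chek2 and Xrcc6 were higher in pBIC.

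Most of the repair genes, but not all, had lower values in BIC than in YC (30 of 38 log2 fold changes below 0 and 8 above). In BIC against YC, 10 of the 38 genes fell and 0 rose (edgeR's quasi-likelihood test, Benjamini-Hochberg adjusted p under 0.05), or 26.3%, where 8.88% of all tested genes were called (3.9% higher, 4.97% lower). At an unadjusted p under 0.05, 23 were lower and 0 higher, and DESeq2 called 19 lower and 0 higher. Their median log2 fold change was -0.86, and that of all tested genes was 0.01. In pBIC against BIC, 22 rose and 1 fell, or 60.5% where 19.7% of all tested genes were called (10.9% higher, 8.78% lower), with a median of 1.05 against 0.09. In pBIC against YC, 8 rose and 1 fell, or 23.7%, which is near the 22.0% of all tested genes (11.8% higher, 10.2% lower), with a median of 0.31 against 0.10. With RLE scaling or library totals in place of TMM that last count split into 7 higher and 2 lower. The comparisons share libraries, so each is given with its own values. For 19 of the 38 genes all 3 BIC libraries lay below all other 9 libraries, as they did for 5.35% of all tested genes. In bulk RNA, fewer cells of a type that express a gene and less RNA per cell cannot be told apart.

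**Figure D1:**
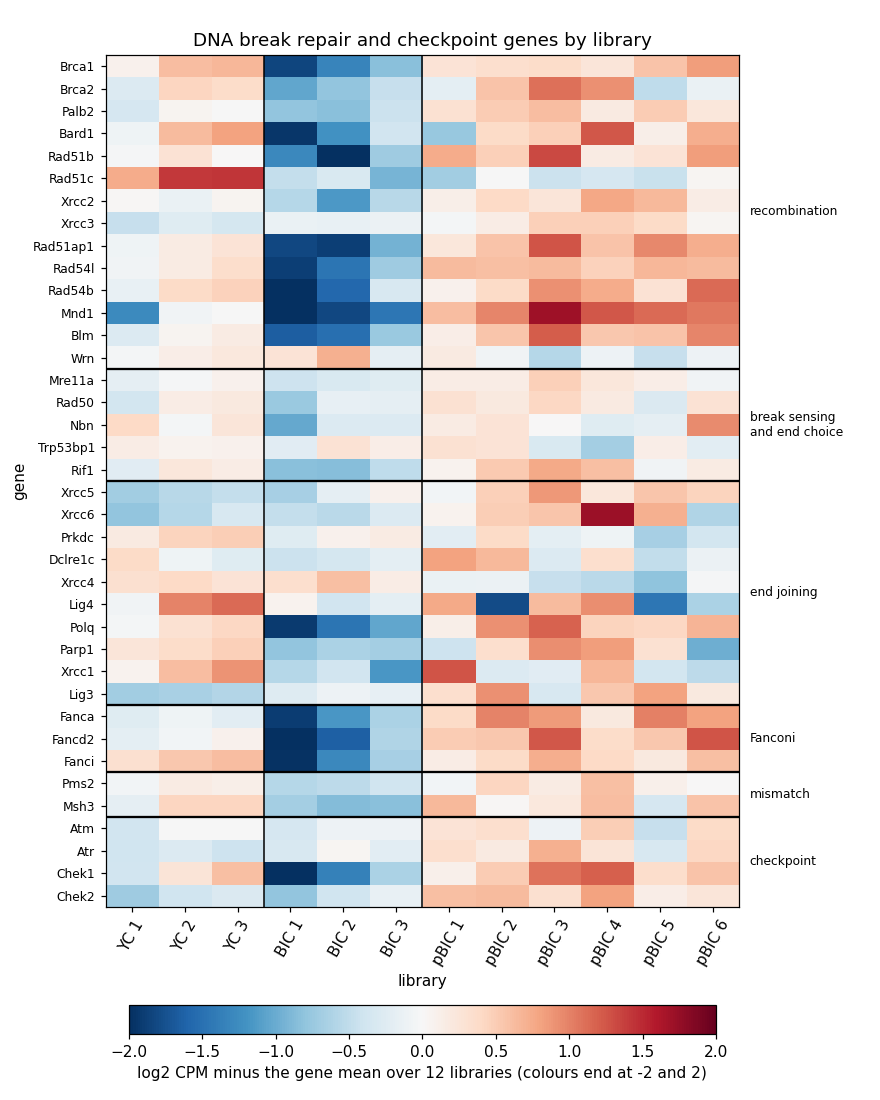
Each cell is the log2 CPM of a gene (row) in a library (column) minus that gene's mean over the 12 libraries, from blue (below) to red (above), with colours ending at -2 and 2. The 3 BIC columns are bluest in the recombination and Fanconi rows, and for 19 of the 38 genes all 3 BIC libraries lay below all other 9.

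Recombination genes made up the largest group, and most of them were lowest in BIC. In BIC against YC 6 of 14 fell, Brca1, Rad51c, Rad51ap1, Rad54l, Mnd1 and Blm, with a median of -1.38 over the 14. Of all tested genes 4.97% fell there. For 12 of 14 every BIC library lay below every YC library, where 23.2% of all tested genes had this pattern and 21.9% the reverse. In pBIC against BIC 11 of 14 rose, where 10.9% of all tested genes did, with a median of 1.62. For 10 of the 14 every pBIC library lay above every BIC library, where 11.7% of all tested genes had this pattern (9.9% the reverse). The 3 that did not pass were Rad51c, Xrcc3 and Wrn. In pBIC against YC 2 rose and 1 fell, or 21.4%, which is near the 22.0% of all tested genes that were called.

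Brca1 (ENSMUSG00000017146.12, chromosome 11, 101488764 to 101551955, GRCm38), which promotes recombination together with Palb2 and Brca2, had 49.9, 71.9 and 74.9 CPM in YC 1 to 3. It had 13.1, 18.9 and 26.4 CPM in BIC 1 to 3 and 55.6, 60.2 and 83.9 CPM as the lowest, median and highest of pBIC. All BIC libraries were low, and the YC and pBIC libraries overlapped. Its level was 3.37-fold lower in BIC than in YC (edgeR adjusted p = 0.00373), a log2 fold change of -1.75 ± 0.27 (SE), and 3.31-fold higher in pBIC than in BIC (1.72 ± 0.24, edgeR adjusted p = 0.00135). In pBIC against YC it was at -0.03 ± 0.22 (edgeR adjusted p = 0.946). Its partners Palb2, Brca2 and Bard1 had all BIC libraries below all YC libraries without passing (log2 fold changes -0.59 to -1.54), and all of them rose in pBIC against BIC (1.08 to 1.52). Of these last calls Palb2 held without any one library, while Bard1 lost it without BIC 1 or BIC 2 (edgeR adjusted p up to 0.137). The lower level of Bard1 in BIC against YC passed without BIC 3 or pBIC 1 (down to 0.0376). Brca2 lost its call in pBIC against BIC without any of 9 libraries, which were all YC and BIC libraries and pBIC 2, 3 and 4 (up to 0.173).

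Rad51b, Rad51c, Xrcc2 and Xrcc3, related proteins that assist strand exchange in recombination, did not move alike. Rad51c (ENSMUSG00000007646.13, chromosome 11, 87376645 to 87404954) had 7.52, 11.9 and 12.1 CPM in YC, 3.23, 3.62 and 2.34 CPM in BIC, and 2.78, 3.43 and 4.61 CPM as the lowest, median and highest of pBIC. Every library of both lymphoma models lay below every YC library, and the models overlapped. Against YC, Rad51c fell by 1.78 ± 0.35 on the log2 scale in BIC (edgeR adjusted p = 0.0102). The fall in pBIC was 2.87-fold (-1.52 ± 0.28, edgeR adjusted p = 0.00313), and pBIC against BIC stood at 0.26 ± 0.30 (edgeR adjusted p = 0.569). The BIC call went without YC 2 or YC 3, with an edgeR adjusted p of up to 0.0531, whereas that of pBIC held without any one library.

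Xrcc3 had 16.5, 19.2 and 17.8 CPM in YC, 20.8, 20.5 and 21.0 CPM in BIC, and 22.2, 27.6 and 31.8 CPM as the lowest, median and highest of pBIC. The groups did not overlap, with YC lowest and pBIC highest. It rose in pBIC against YC (0.62 ± 0.17, edgeR adjusted p = 0.0209), a call that was lost without any one of the 3 YC libraries (up to 0.0933) and with a term for Xist. Rad51b and Xrcc2 followed Brca1 instead. Both lay lower in all BIC than in all YC libraries without passing (-1.35 and -0.71), and both rose in pBIC against BIC (1.94 ± 0.41 and 1.14 ± 0.24). Per kilobase of exon, Rad51c was 1.5 to 2.38 times Rad51b in YC, 0.756 to 2.99 times in BIC and 0.262 to 0.631 times in pBIC. This pair was chosen after its values were seen, and only pBIC lay apart from the other groups.

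Rad54l and Rad51ap1 act in strand exchange, the first as a motor protein and the second as a factor that stimulates strand pairing. Rad54l (ENSMUSG00000028702.15, chromosome 4, 116094264 to 116123690) had 27.3, 32.3 and 36.4 CPM in YC, 7.76, 10.4 and 17.4 CPM in BIC, and 39.4, 44.4 and 45.5 CPM as the lowest, median and highest of pBIC. The groups did not overlap, with BIC lowest and pBIC highest. It fell in BIC against YC (-1.43 ± 0.25, edgeR adjusted p = 0.00658) and rose in pBIC against BIC (1.88 ± 0.24, edgeR adjusted p = 0.000856). About 15.4% of its exon bases are shared with Lrrc41 on the opposite strand, and reads there cannot be assigned without strand.

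Rad51ap1 had 18.8, 22.2 and 24.1 CPM in YC, 5.62, 5.37 and 10.3 CPM in BIC, and 23.2, 31.2 and 47.7 CPM as the lowest, median and highest of pBIC. BIC was low throughout, and YC and pBIC overlapped. It fell in BIC (-1.61 ± 0.31, edgeR adjusted p = 0.00935), a call lost without BIC 1 or BIC 2 (up to 0.052) and with a term for Xist. In pBIC against BIC it rose (2.24 ± 0.29, edgeR adjusted p = 0.000963). Rad54b, a relative of Rad54l, did not pass in BIC against YC (-1.42 ± 0.46, passing without BIC 3 at 0.0135) and rose in pBIC against BIC (1.81 ± 0.42), a call lost without BIC 1 or BIC 2 (up to 0.0665). It shares 35.8% of its exon bases with Fsbp on the same strand, so its counts are uncertain.

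Mnd1 (ENSMUSG00000033752.7, chromosome 3, 84087933 to 84155786), known above all for its role in meiotic recombination, had the largest log2 fold change of the 38 genes. It had 2.43, 5.59 and 5.81 CPM in YC, 1.37, 1.66 and 2.15 CPM in BIC, and 8.98, 12.5 and 19.1 CPM as the lowest, median and highest of pBIC. No groups overlapped, with BIC lowest and pBIC highest. Mnd1 was 7.57-fold higher in pBIC than in BIC (2.92 ± 0.38 on the log2 scale, edgeR adjusted p = 0.000994) and 2.84-fold higher in pBIC than in YC (1.51 ± 0.35, edgeR adjusted p = 0.0105). It fell in BIC against YC (-1.42 ± 0.39, edgeR adjusted p = 0.0428), but that call was lost without any of 8 libraries, which were YC 2, YC 3, all BIC libraries and pBIC 2, 4 and 5 (up to 0.16). The same call was lost with a term for Xist.

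Of the RecQ helicases among the 38 genes, Blm was called and Wrn was not. Blm, which dissolves joined recombination intermediates, fell in BIC against YC (-1.23 ± 0.30, edgeR adjusted p = 0.0273). That call was lost without YC 2, YC 3, BIC 1 or BIC 2 (up to 0.117) and with a term for Xist. Blm rose in pBIC against BIC (1.94 ± 0.28, edgeR adjusted p = 0.00146). In pBIC against YC Blm stood at 0.71 ± 0.26, which passed without BIC 3 or pBIC 1 (edgeR adjusted p down to 0.0373). Wrn had 52.0, 58.2 and 61.6 CPM in YC, 64.1, 87.5 and 47.1 CPM in BIC, and 36.0, 49.6 and 60.3 CPM as the lowest, median and highest of pBIC. The groups overlapped, and Wrn passed in no comparison (0.21 ± 0.24 in BIC and -0.27 ± 0.21 in pBIC against YC, and -0.48 ± 0.21 between the models), although without BIC 3 the last passed (edgeR adjusted p = 0.0439).

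**Figure D2:**
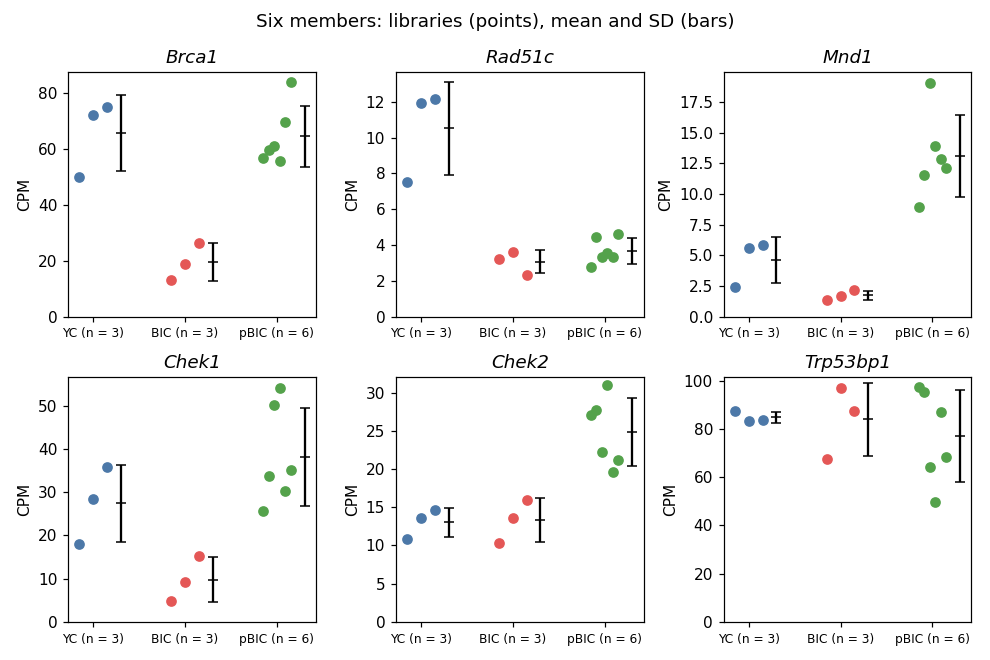
CPM of Brca1, Rad51c, Mnd1, Chek1, Chek2 and Trp53bp1 in each library (points) with the mean and SD of each group (bars), for YC (n = 3), BIC (n = 3) and pBIC (n = 6). Brca1 and Chek1 were low in BIC, Rad51c was low in both models, Mnd1 and Chek2 were high in pBIC, and Trp53bp1 overlapped in all groups at 49.6 to 97.6 CPM.

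Of the 5 genes of break sensing and end choice, edgeR called 0 in BIC and 0 in pBIC against YC, with medians of -0.35 and 0.18. Of all tested genes 8.88% and 22.0% were called, and among only 5 genes a count of 0 is not far from these shares. At an unadjusted p under 0.05, 2 were lower in BIC and 0 differed in pBIC, and DESeq2 called 1 and 0. In pBIC against BIC 2 of 5 rose, Mre11a and Rif1, where 10.9% of all tested genes did. For 3 of the 5 all BIC libraries lay below all other 9, as for 5.35% of all tested genes. Mre11a, the nuclease of the Mre11-Rad50-Nbn complex that binds broken ends, had 56.3, 62.7 and 67.5 CPM in YC, 47.9, 51.6 and 53.9 CPM in BIC, and 60.3, 70.5 and 88.2 CPM as the lowest, median and highest of pBIC. All BIC libraries lay lowest, and YC and pBIC overlapped. Its rise in pBIC against BIC (0.50 ± 0.14, edgeR adjusted p = 0.0277) was lost without YC 3 or any BIC library (up to 0.13). Nbn, the adaptor of the complex, had 43.3, 31.7 and 38.8 CPM in YC, 16.0, 27.1 and 27.2 CPM in BIC, and 27.6, 34.8 and 62.9 CPM as the lowest, median and highest of pBIC, and passed in no comparison.

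Rif1 and Trp53bp1 together hold back the trimming of ends and so favour end joining. Rif1 had 101, 137 and 130 CPM in YC, 65.5, 65.5 and 83.0 CPM in BIC, and 112, 151 and 198 CPM as the lowest, median and highest of pBIC. BIC lay below both other groups, which overlapped, and Rif1 rose in pBIC against BIC (1.09 ± 0.21, edgeR adjusted p = 0.00505). In BIC against YC it missed the threshold (-0.78 ± 0.23, edgeR adjusted p = 0.0584) and passed without pBIC 3 or pBIC 5 (down to 0.0436). Trp53bp1 had 87.5, 83.5 and 83.9 CPM in YC, 67.5, 97.1 and 87.4 CPM in BIC, and 49.6, 77.7 and 97.6 CPM as the lowest, median and highest of pBIC. All groups overlapped, and its log2 fold changes against YC were -0.02 ± 0.24 in BIC and -0.14 ± 0.21 in pBIC, and -0.12 ± 0.21 between the models. Brca1 and Trp53bp1 compete over the choice of repair route in S phase. Per kilobase of exon, Brca1 was 0.946 to 1.48 times Trp53bp1 in YC, 0.323 to 0.501 times in BIC and 0.966 to 2.04 times in pBIC. This pair too was chosen after its values were seen, and the BIC libraries lay below all others. Trp53bp1 shares 2130 of its 14164 exon bases with Tubgcp4 on the opposite strand.

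At the adjusted threshold edgeR called end joining genes at shares not far from those of all tested genes. In BIC against YC 1 of 10 fell, where 8.88% of all tested genes were called. In pBIC against YC 3 rose and 0 fell (30.0% against 22.0%), and in pBIC against BIC 2 rose and 1 fell (30.0% against 19.7%). At an unadjusted p under 0.05 the higher and lower counts were 0 and 3, 3 and 2, and 6 and 1 in these comparisons. DESeq2 called 0 and 1, 3 and 2, and 4 and 1, and 3032, 5321 and 4863 of all 17754 genes. Only 1 of the 10 had all BIC libraries below the other 9, where 5.35% of all tested genes did. Polq, the polymerase of microhomology-mediated end joining, which works on the same trimmed ends as recombination, was that gene. It had 31.2, 39.8 and 42.6 CPM in YC, 8.54, 11.7 and 15.6 CPM in BIC, and 34.8, 47.5 and 72.5 CPM as the lowest, median and highest of pBIC. Polq (ENSMUSG00000034206.15, chromosome 16, 37011786 to 37095417) was 3.17-fold lower in BIC than in YC (-1.66 ± 0.30, edgeR adjusted p = 0.00667) and 4.27-fold higher in pBIC than in BIC (2.09 ± 0.28, edgeR adjusted p = 0.00105), and both calls held without any one library.

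The Ku subunits Xrcc5 and Xrcc6 bind broken ends as a pair and start classical end joining. Xrcc5 (ENSMUSG00000026187.8, chromosome 1, 72307421 to 72394952) had 30.2, 33.2 and 35.1 CPM in YC, 31.0, 43.1 and 51.8 CPM in BIC, and 47.0, 67.4 and 89.2 CPM as the lowest, median and highest of pBIC. All pBIC libraries lay above all YC libraries, and BIC overlapped both groups. It was 2.03-fold higher in pBIC than in YC (1.02 ± 0.22, edgeR adjusted p = 0.0065). In pBIC against BIC it rose by 0.67 ± 0.21 (edgeR adjusted p = 0.0466), a call lost without any of 10 libraries (up to 0.211), the exceptions being pBIC 1 and pBIC 4.

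Xrcc6 had 37.6, 43.6 and 51.6 CPM in YC, 46.6, 44.7 and 53.7 CPM in BIC, and 42.4, 92.9 and 212 CPM as the lowest, median and highest of pBIC. The pBIC libraries spread widely, with pBIC 4 highest and pBIC 6 within the range of YC. Its rise in pBIC against YC (1.21 ± 0.40, edgeR adjusted p = 0.0471) was lost without any of 9 libraries, which were all YC and BIC libraries and pBIC 2, 3 and 5 (up to 0.161), and with RLE scaling or library totals. Prkdc, the kinase that Ku recruits, was not called (-0.53 ± 0.20 in pBIC against YC, edgeR adjusted p = 0.0785), and passed there without pBIC 2 (0.0159). In pBIC against BIC, Xrcc6 did not pass (1.08 ± 0.39), but passed without pBIC 6 (edgeR adjusted p = 0.0198), with a term for Xist and in DESeq2. Per kilobase of exon, Xrcc5 was 1.1 to 1.19 times Prkdc in YC, 1.64 to 2.07 times in BIC and 2.35 to 5.09 times in pBIC. The ranges did not overlap for this pair, which was chosen after its values were seen.

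Xrcc4 and Lig4 form the ligase complex that seals classical joins. Xrcc4 had 12.3, 13.01 and 11.9 CPM in YC, 12.4, 14.9 and 10.9 CPM in BIC, and 5.60, 8.04 and 9.72 CPM as the lowest, median and highest of pBIC. All pBIC libraries lay below all others. It fell in pBIC against BIC (-0.69 ± 0.23, edgeR adjusted p = 0.0494), a call lost without any of 9 libraries, the exceptions being pBIC 1, 2 and 6 (up to 0.188), and it missed the threshold in pBIC against YC (-0.66 ± 0.23, edgeR adjusted p = 0.056), which it passed without pBIC 6 (0.0405). Lig4 had 17.1, 35.7 and 39.6 CPM in YC, 18.9, 13.7 and 15.7 CPM in BIC, and 5.17, 19.7 and 34.2 CPM as the lowest, median and highest of pBIC. The groups overlapped, Lig4 had the largest spread of the 38 genes in pBIC (SD of log2 CPM 1.19), and it passed in no comparison.

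Parp1, Xrcc1 and Lig3 serve single-strand break repair and the alternative route of end joining. Lig3 had 28.7, 29.8 and 31.2 CPM in YC, 38.9, 43.2 and 41.5 CPM in BIC, and 37.3, 63.2 and 87.5 CPM as the lowest, median and highest of pBIC. YC lay below both models, which overlapped, and Lig3 rose in pBIC against YC (1.11 ± 0.24, edgeR adjusted p = 0.0068), a call that held without any one library. Against BIC it did not pass (0.65 ± 0.23), but passed without pBIC 3 (edgeR adjusted p = 0.0166) and with a term for Xist. It shares 25.1% of its exon bases with Rffl on the opposite strand, and reads there cannot be assigned. Parp1 had the highest level per kilobase of exon of the 38 genes in every group, with 92.2, 44.0 and 89.1 CPM per kilobase as means of YC, BIC and pBIC. By library it had 449, 489 and 526 CPM in YC, 220, 244 and 236 CPM in BIC, and 194, 475 and 722 CPM as the lowest, median and highest of pBIC. BIC lay below YC and inside the range of pBIC, where pBIC 6 was lowest. Parp1 did not pass (-1.07 ± 0.40 in BIC against YC, edgeR adjusted p = 0.113, and 1.02 ± 0.35 in pBIC against BIC, edgeR adjusted p = 0.0629), but without pBIC 6 both passed (edgeR adjusted p = 0.0425 and 0.0117), and the latter did without pBIC 1 too. Xrcc1 and Dclre1c, the nuclease Artemis that opens V(D)J hairpins, passed in no comparison with all libraries, and Xrcc1 passed in BIC against YC without pBIC 1 (edgeR adjusted p = 0.0418).

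The Fanconi genes were lower in all BIC libraries than in all other 9 for 3 of 3, where 5.35% of all tested genes were. In pBIC against BIC 3 of 3 rose, where 10.9% of all tested genes did. Fanci and Fancd2 form the clamp that the pathway loads onto crosslinked DNA, and Fanca belongs to the core complex that marks it. Fanci (ENSMUSG00000039187.16, chromosome 7, 79391929 to 79450264) had 21.7, 25.2 and 26.7 CPM in YC, 4.40, 7.08 and 10.96 CPM in BIC, and 19.1, 22.7 and 28.6 CPM as the lowest, median and highest of pBIC. BIC was low, and YC and pBIC overlapped. Fanci was 3.28-fold lower in BIC than in YC (-1.71 ± 0.30, edgeR adjusted p = 0.00624) and rose in pBIC against BIC (1.63 ± 0.27, edgeR adjusted p = 0.00277), and both calls held without any one library. It shares 16.0% of its exon bases with Polg on the opposite strand.

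Fancd2 had 31.4, 34.7 and 38.2 CPM in YC, 8.63, 11.6 and 23.7 CPM in BIC, and 46.3, 52.1 and 85.5 CPM as the lowest, median and highest of pBIC. The groups did not overlap, with BIC lowest and pBIC highest. It missed the threshold in BIC against YC (-1.24 ± 0.36, edgeR adjusted p = 0.0527) and rose in pBIC against BIC (2.08 ± 0.34, edgeR adjusted p = 0.00262). The difference from YC passed without BIC 3, pBIC 3 or pBIC 6 (down to 0.013), as did its level in pBIC against YC (0.83 ± 0.32) without BIC 3 (0.032). Fanca had 46.3, 51.9 and 47.6 CPM in YC, 14.8, 24.5 and 35.5 CPM in BIC, and 63.0, 97.6 and 111 CPM as the lowest, median and highest of pBIC. These groups did not overlap either, and in the same order. Fanca rose in pBIC against BIC (1.88 ± 0.28, edgeR adjusted p = 0.00168), and against YC by 0.92 ± 0.27 (edgeR adjusted p = 0.0283). The rise against YC was lost without any one YC library (up to 0.104) and with a term for Xist. Its lower level in BIC against YC (-0.96 ± 0.30) did not pass, but passed without BIC 3 (edgeR adjusted p = 0.0349), with only these groups fitted and in DESeq2. Fanca shares 10.5% of its exon bases with Zfp276 on the opposite strand.

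Both mismatch repair genes lay lower in all BIC libraries than in all other 9, where 5.35% of all tested genes did. Msh3, which recognises small loops of unpaired bases, had 56.7, 86.7 and 86.4 CPM in YC, 40.1, 35.2 and 35.9 CPM in BIC, and 51.0, 84.7 and 101 CPM as the lowest, median and highest of pBIC. BIC was low and the other groups overlapped. Msh3 (ENSMUSG00000014850.15, chromosome 13, 92211872 to 92355003) fell in BIC against YC (-1.05 ± 0.26, edgeR adjusted p = 0.0306) and rose in pBIC against BIC (1.12 ± 0.24, edgeR adjusted p = 0.00784). The fall was lost without YC 2, YC 3 or any BIC library (up to 0.115) and with a term for Xist. Pms2, a nuclease subunit of mismatch repair, had 35.4, 41.2 and 40.0 CPM in YC, 24.7, 25.4 and 27.8 CPM in BIC, and 35.4, 40.3 and 56.0 CPM as the lowest, median and highest of pBIC. It rose in pBIC against BIC (0.73 ± 0.17, edgeR adjusted p = 0.0128), a call lost without BIC 1 or BIC 2 (up to 0.0697).

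Chek1 was lowest in BIC and Chek2 highest in pBIC. Chek1 (ENSMUSG00000032113.16, chromosome 9, 36708482 to 36727065), which acts after stalled replication, had 18.1, 28.4 and 35.9 CPM in YC, 4.84, 9.26 and 15.3 CPM in BIC, and 25.6, 34.5 and 54.2 CPM as the lowest, median and highest of pBIC. BIC was low, and YC and pBIC overlapped. It was 3.90-fold higher in pBIC than in BIC (1.96 ± 0.39, edgeR adjusted p = 0.00596). It fell in BIC against YC (-1.49 ± 0.42, edgeR adjusted p = 0.0458), a call lost without any of 8 libraries, which were all YC libraries, BIC 1, BIC 2 and pBIC 2, 5 and 6 (up to 0.162). The same call was lost with a term for Xist.

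Chek2 (ENSMUSG00000029521.7, chromosome 5, 110839979 to 110874145), which signals breaks to p53, had 10.9, 13.6 and 14.6 CPM in YC, 10.3, 13.6 and 16.0 CPM in BIC, and 19.6, 24.7 and 31.0 CPM as the lowest, median and highest of pBIC. Every pBIC library lay above every other library, and YC and BIC overlapped. Chek2 rose in pBIC by 0.93 ± 0.22 on the log2 scale against YC (edgeR adjusted p = 0.0104). Against BIC the rise was 0.90 ± 0.22 (edgeR adjusted p = 0.0144). The first call was lost without YC 1 (0.0604) and the second without BIC 1 or BIC 2 (up to 0.0878). Per kilobase of exon, Chek1 was 1.08 to 1.59 times Chek2 in YC, 0.304 to 0.618 times in BIC and 0.612 to 1.46 times in pBIC, a pair chosen after its values were seen.

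Of the upstream kinases Atr was called in pBIC against YC and Atm was not called. Atr had 65.0, 71.1 and 64.4 CPM in YC, 68.8, 88.3 and 74.2 CPM in BIC, and 68.8, 106 and 141 CPM as the lowest, median and highest of pBIC. The pBIC libraries overlapped both groups at their low end. Its rise in pBIC against YC (0.66 ± 0.20, edgeR adjusted p = 0.032) was lost without any one YC library (up to 0.112), and without pBIC 5 it passed against BIC as well (0.0342). Atm had 121, 156 and 156 CPM in YC, 124, 147 and 146 CPM in BIC, and 115, 194 and 222 CPM as the lowest, median and highest of pBIC. All groups overlapped and Atm passed in no comparison.

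**Figure D3:**
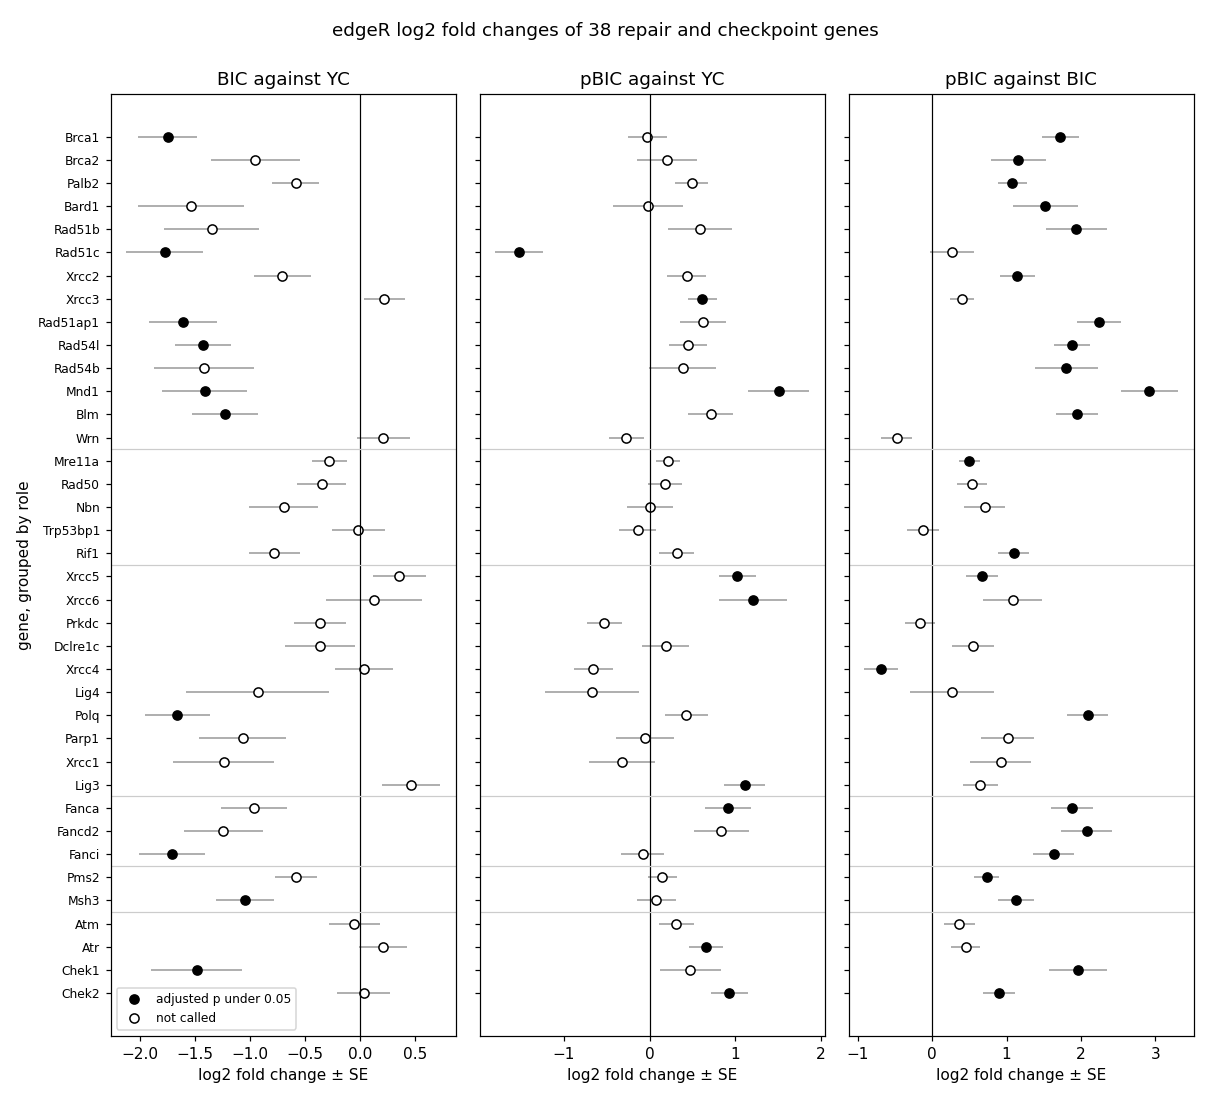
Log2 fold changes (points) with 1 SE (lines) of the 38 genes, grouped by role from recombination at the top to checkpoint at the bottom, for the 3 comparisons. Filled points passed an adjusted p of 0.05, and most lie left of 0 in BIC against YC (10 fell, 0 rose) and right of 0 in pBIC against BIC (22 rose, 1 fell).

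The summed mitosis and S phase markers were lower in all BIC libraries than in all others, as were 19 of the 38 repair genes. Of 20 mitosis markers such as Mki67 and Ccnb1, 19 fell in BIC against YC, 0 were called in pBIC against YC and 20 rose in pBIC against BIC, and none was at 0 counts in any library. Their summed level was 2217 to 3387 CPM in YC, 591 to 1026 CPM in BIC and 2241 to 4187 CPM in pBIC. Of 20 S phase markers such as Mcm2 and Rrm2, 16 fell, 1 rose and 19 rose in the same comparisons. Of all tested genes 4.97% fell in BIC against YC, 11.8% rose in pBIC against YC and 10.9% rose in pBIC against BIC. With the mean level of the mitosis markers as a term in the fit, 0 of the 38 genes were called in BIC against YC and 0 in pBIC against BIC, and of all 17754 genes 9 and 0 were called. The marker level separated BIC from the other groups completely, so group and marker level cannot be told apart in those comparisons. In pBIC against YC, where the marker ranges overlapped, 10 of the 38 genes were called with the same term. There Xrcc6 lost its call and Blm and Fancd2 gained one. Of all 17754 genes 3927 were called in pBIC against YC with the term and 3914 (22.0%) without it, so the 10 are near the share of all genes.

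**Figure D4:**
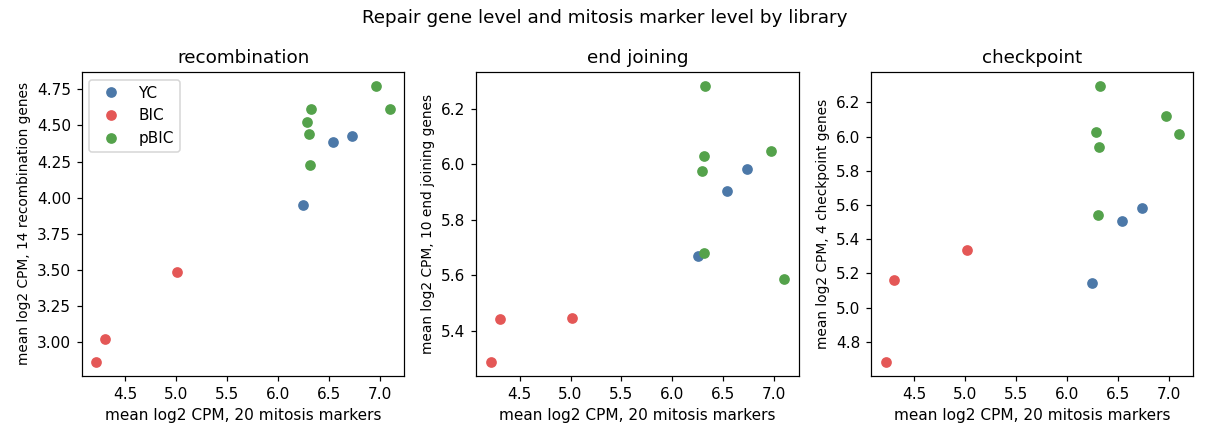
Mean log2 CPM of the recombination (14), end joining (10) and checkpoint (4) genes (vertical axes) against the mean log2 CPM of 20 mitosis markers (horizontal axes), 1 point per library, coloured by group. The BIC libraries lie at the low end of both axes for recombination and for end joining. The end joining genes averaged 5.852 in YC, 5.392 in BIC and 5.935 in pBIC, and the checkpoint genes averaged 5.41 in YC, 5.06 in BIC and 5.99 in pBIC.

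Within groups the repair genes also differed by library. YC 1 was the lowest YC library for 32 of the 38 genes, BIC 1 the lowest BIC library for 25, BIC 3 the highest BIC library for 26 and pBIC 3 the highest pBIC library for 15. YC 1 had the lowest mitosis marker sum in YC (2217 CPM), BIC 1 the lowest in BIC (591 CPM), BIC 3 the highest in BIC (1026 CPM) and pBIC 3 the highest in pBIC (4187 CPM). The match with the mitosis sum was not complete. In pBIC, pBIC 1 was the lowest library for 13 genes, the most in that group, while pBIC 5 had the lowest mitosis sum (2241 CPM). The summed S phase markers were lowest in pBIC 1 (1916 CPM) and highest in pBIC 3 (4077 CPM) within pBIC. Within their groups they were also lowest in YC 1 (2524 CPM) and BIC 1 (770 CPM), and highest in BIC 3 (1473 CPM). The neutrophil marker sums of YC 1, BIC 1 and BIC 2 stood above those of the other libraries, as given above, and of the 10 neutrophil markers 1 rose in BIC against YC and 9 fell in pBIC against BIC. The summed T cell markers were higher in every BIC library than in every other, and 1 of 10 rose in BIC against YC and 3 of 10 fell in pBIC against BIC. Of all tested genes 3.9% rose in BIC against YC and 8.78% fell in pBIC against BIC, and 1 of 10 is not far from the former share. The part of these marker levels in the differences between groups was not tested, other than by the mitosis term. The median SD of log2 CPM between libraries was 0.21, 0.321 and 0.356 for the 38 genes in YC, BIC and pBIC, and 0.267, 0.336 and 0.594 for all tested genes.

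Other genes of the same pathways were counted from a list of 95, of which 94 were tested. In BIC against YC 1 rose and 25 fell (27.7%, against 8.88% of all tested genes called), and in pBIC against BIC 38 rose and 6 fell (46.8% against 19.7%). In pBIC against YC 7 rose and 10 fell, and this 18.1% lay below the 22.0% of all tested genes. By route, 10 of 33 other recombination genes fell in BIC against YC, with 2 of 13 for end joining, 3 of 16 for Fanconi, 2 of 6 for mismatch repair and 8 of 26 for checkpoint and end choice. Of all tested genes 4.97% fell there. In pBIC against BIC the routes in this order had 16, 3, 6, 4 and 9 genes higher and 2, 2, 0, 0 and 2 lower, where 10.9% of all tested genes rose and 8.78% fell. The median of the other end joining genes was -0.174 there, and that of the 10 among the 38 was 0.657. Dna2, a nuclease that trims ends, had 31.5, 49.4 and 56.4 CPM in YC, 5.10, 3.60 and 4.35 CPM in BIC, and 22.0, 34.2 and 57.0 CPM as the lowest, median and highest of pBIC. BIC was low throughout, with Dna2 falling in BIC against YC (-3.39 ± 0.38, edgeR adjusted p = 0.0012) and rising in pBIC against BIC (3.10 ± 0.35, edgeR adjusted p = 0.00073). Clspn, the mediator through which Atr activates Chek1, rose in pBIC against BIC as well (2.36 ± 0.31, edgeR adjusted p = 0.00101).

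Among the genes named from that list, some fell in pBIC. Rad9a, a subunit of the checkpoint clamp, had 50.4, 55.6 and 52.0 CPM in YC, 35.0, 46.0 and 38.1 CPM in BIC, and 22.2, 23.3 and 31.9 CPM as the lowest, median and highest of pBIC, below all other libraries. It fell in pBIC against YC (-1.09 ± 0.15, edgeR adjusted p = 0.000772). Its partner in the clamp, Rad1, went the other way, with 11.3, 14.5 and 14.4 CPM in YC, 24.4, 18.9 and 24.3 CPM in BIC, and 24.2, 28.6 and 37.0 CPM as the lowest, median and highest of pBIC. Rad1 rose in pBIC against YC (1.11 ± 0.19, edgeR adjusted p = 0.00198) and in BIC against YC (0.75 ± 0.21, edgeR adjusted p = 0.0426), the latter lost without any YC or BIC library or pBIC 5 (up to 0.146). Rmi1, which works with Blm, and the nuclease Mus81 both fell in pBIC against BIC (-1.08 ± 0.19, edgeR adjusted p = 0.00347, and -0.93 ± 0.19, edgeR adjusted p = 0.00629), while Blm itself rose there. Helq, a helicase at stalled forks, fell against YC by 1.96 ± 0.20 in BIC (edgeR adjusted p = 0.00106) and by 1.16 ± 0.16 in pBIC (edgeR adjusted p = 0.000665), and Babam2, a subunit of a Brca1 complex, rose in pBIC against YC (0.81 ± 0.15, edgeR adjusted p = 0.00352).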

How the data were processed

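Raw read counts per gene were deposited for 12 libraries. Per the file headers, the authors made these counts with featureCounts 1.5.0 over exons in GENCODE M13, without the paired-end, strand and multi-mapping options. Each read was thus counted on its own, and strand could not separate overlapping genes. Whether reads that overlap several genes were counted or dropped was not checked. The submitters' processing notes name FastQC, STAR, edgeR and limma, and mm10 (GRCm38); versions of these were not given in the sources used here. Rows without a symbol held at most 0.192% of a library. The test was edgeR 4.0.16 under R 4.3.3 (TMM, minimum count 10, robust quasi-likelihood fit of all 12 libraries with 1 coefficient per group, F test, Benjamini-Hochberg over 17754 genes, threshold 0.05), checked on simulated counts. SE is the log2 fold change over the square root of F. DESeq2 1.42.0, other scalings, filters, terms and left-out libraries were alternatives. The members and all lists were chosen with earlier results of these data known. Full values are given for up to 4 called genes per role and comparison in order of p, and for the lowest and highest uncalled; other pathway genes by p, up to 2 per direction. The design text counts replicates as separate mice. A count of 0 allows up to 3 counts (0.0637 to 0.0906 CPM), which covers counting error only. Some genes of these pathways are not reported here.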

Additional observations from a re-analysis of the deposited data

Results flagged for a closer look

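A library that stood apart from the other 5 of its group was looked for in pBIC, the only group large enough, for each of the 38 genes. Such a library was flagged for 2 of the 38 genes, which is near the rate of about 1 in 20 that chance alone gives. Rad54l was lowest in pBIC 4 at 39.44 CPM, with the next library at 43.53 CPM, a gap of 0.69 of the range of the 6 libraries. All 6 libraries still lay above YC and BIC. Rad50, the arm of the Mre11-Rad50-Nbn complex, was lowest in pBIC 5 at 62.23 CPM, with the next at 86.61 CPM, a gap of 0.678 of the range. Without pBIC 5, Rad50 passed in pBIC against BIC (edgeR adjusted p = 0.0378), where it had missed the threshold with all libraries (0.53 ± 0.20, edgeR adjusted p = 0.0781).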

How the results depend on the processing

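Of the calls on the 38 genes, 4 of 10 in BIC against YC (Brca1, Rad54l, Polq, Fanci), 4 of 9 in pBIC against YC (Rad51c, Mnd1, Xrcc5, Lig3) and 15 of 23 in pBIC against BIC held without any one library and under every other setting but the mitosis term. The 4 in pBIC against YC also held with the mitosis term. Members called in BIC against YC numbered 20 (1 higher, 19 lower) with only these groups fitted, 19 with DESeq2, 6 with a term for Xist and 0 with the mitosis term, and 5 to 12 without 1 library, with 5 without YC 2, YC 3, BIC 1 or BIC 2. Without 1 library they numbered 4 to 10 in pBIC against YC, with 4 without YC 1 and 5 without YC 2 or YC 3. In pBIC against BIC they numbered 15 to 24, with 15 without BIC 1 or BIC 2, and the mitosis term left 0 there. With the Xist term Blm, Chek1, Mnd1, Msh3 and Rad51ap1 lost their calls in BIC against YC and Pms2 gained one. Over all genes, BIC against YC gave 4602 calls with only these groups, 1019 with the Xist term, 9 with the mitosis term, 3032 with DESeq2 and 563 to 1867 without 1 library. Without 1 library pBIC against YC gave 1904 to 4376 and pBIC against BIC gave 1422 to 4134. DESeq2 gave 5321 in pBIC against YC and 4863 in pBIC against BIC, and the mitosis term left 0 in the latter. Leaving out a library also removes degrees of freedom. Signs of called members turned only under the mitosis term, where none stayed called: in BIC against YC Blm (0.59), Chek1 (0.27) and Mnd1 (0.12), and in pBIC against BIC Bard1 (-0.17), Fancd2 (-0.26), Rad54b (-0.78) and Xrcc5 (-0.38). In BIC against YC the share of calls that were higher was 44.0%, and ran from 35.5% without YC 2 to 52.7% with the Xist term, and to 100.0% of the 9 calls with the mitosis term.

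Replicate numbers did not pair the mice (correlations of same-numbered libraries -0.095 to 0.155). With the replicate number as a block, 17 members were called in BIC against YC, 8 in pBIC against YC and 25 in pBIC against BIC, and 1725, 3144 and 2424 genes in all.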
